A study of Homo sapiens with 6 samples.

Results

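The 40 interferon-stimulated genes examined here were chosen by symbol, as a fixed list of transcription regulators, RNA sensors and antiviral effectors that cells are known to raise when they meet interferon. All 40 symbols were found, each as 1 entry, among the 25737 entries of 24462 symbols in the count files. Rows were taken by symbol alone, from a list drawn up with earlier results of these data known. The study treated 2 wild-type human lung epithelial lines with transforming growth factor-β1 (TGF-β1) to model pulmonary fibrosis: A549, a lung carcinoma line, and BEAS-2B, an immortalized bronchial epithelial line. Cells received 0 (control), 1 or 5 ng/mL of the factor for 48 h, and 1 library of 3′ mRNA ends was made per condition, giving 6 libraries. The sources describe routine culture in medium with more serum and a reduced-serum medium for the treatment, and do not say which of these the control cells had during the 48 h. No interferon was added in any condition, so the levels are those of cells at rest or under TGF-β1.

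Interferons are secreted proteins that warn cells of viral infection. Type I and type III interferons act through their receptors on the kinases JAK1 and TYK2, which activate STAT2, and this joins IRF9 in the complex ISGF3. ISGF3 binds the interferon-stimulated response element (ISRE), a short promoter motif with repeated GAAA letters. In epithelial cells many of these genes are also transcribed at a low level without added interferon, and airway epithelium is a first site of contact with respiratory viruses.

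Promoter sequences show what the genes share. RefSeq promoters (GRCh38.p14, from 250 bases before to 50 after the start) were found for 31 of the 40 genes. They were searched on both strands for 2 forms of the ISRE core, a pair of GAAA words with 2 or with 3 letters of any kind between them, which can overlap each other in 1 stretch. The form with 2 letters was present in 19 of the 31 promoters (61.3%) against 3.57% of the 35116 promoters in the table. The form with 3 was present in 6 (19.4%) against 2.86%, and either form in 21 (67.7%) against 6.08%. The promoters of STAT2, IRF9, IRF1, HERC6, PARP9, OAS1, RSAD2, IFI16, IFI35 and XAF1 held neither in this window. The genes IRF7, DHX58, USP18, IFIT2, IFITM2, OAS2, OASL, MX2 and RARRES3 had no promoter entry. A match describes letters only, and no binding was measured.

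The match nearest to the start is shown for the 6 genes that held one and were called lower at 5 ng/mL TGF-β1 in either line, so that the letters can be read beside the genes the results rest on. Capitals mark the ISRE core, and each line reads 5′ to 3′ on the strand named.
IFI6, chr1:27672266-27672295, minus strand: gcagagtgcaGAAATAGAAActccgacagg
IFITM1, chr11:314024-314053, plus strand: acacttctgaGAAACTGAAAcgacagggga
OAS3, chr12:112938459-112938488, plus strand: cgggaaaacGAAACCAGAAAtccgaaggcc
BST2, chr19:17405735-17405764, minus strand: ctgggaaactGAAACTGAAAacctaattaa
DTX3L, chr3:122564322-122564351, plus strand: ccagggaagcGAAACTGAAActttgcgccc
SECTM1, chr17:82333750-82333779, plus strand: ggagccccagGAAAATGAAAgacacgagag
The core lay close to the start in DTX3L, IFITM1, OAS3 and SECTM1, beginning 6, 6, 6 and 3 bases before it, and 93 and 124 bases before it in IFI6 and BST2.

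Total counts ranged from 4120624 to 7841350 per library. Counts are printed as deposited, in the order 0, 1 and 5 ng/mL, and since the A549 libraries had totals of 4144476, 7841350 and 6101351, equal counts stand for lower levels in the treated A549 libraries. Counts were scaled by TMM, and a normalized count is a count divided by the effective size of its library and multiplied by the mean effective size. Its ND (normalized data) value is taken as log2 after adding 1. With the study's limits, a gene was called when its fold change (FC) was at least 2 and its ND value was at least 7 (a normalized count of 127) in at least 1 of the 2 libraries compared. How the study scaled its ND values is not given in the sources used here, so calls with log2(CPM + 1) as the ND value are given beside the main ones. Folds are ratios of normalized counts with exact 95% Clopper-Pearson intervals. With 1 library per condition there was no replicate check and no test between conditions, and since the protocol names no molecular identifiers the intervals hold for read counting alone, not for molecules or cultures. Because only 16 of the 40 genes reached an ND value of 7 in any library, the text also states whether an interval lay wholly on 1 side of 1, for genes with at least 10 counts in the 2 libraries together. "At least" marks a bound from the 3 counts that a 0 allows, which takes the other count as exact. "Fell" and "rose" are used for calls, and "below control beyond counting error" for intervals. Scaling by total counts alone would lower every log2 FC by 0.17 and 0.21 in A549 and by 0.13 at both doses in BEAS-2B, for 1 and 5 ng/mL. The share of rises among all calls then went from 46.5% to 32.2% and from 48.4% to 33.8% in A549, and from 38.3% to 27.3% and from 38.7% to 26.9% in BEAS-2B. Of the 40 genes 5 and 5 were then called lower in A549 and 11 and 9 in BEAS-2B, with 0 higher. Of all callable genes 16% and 21.9% were then lower in A549 and 12% and 14.7% in BEAS-2B. The shares higher were 7.56% and 11.2% in A549 and 4.5% and 5.43% in BEAS-2B. Epithelial keratin KRT18 was counted at 9719 to 14592 in A549 and 717 to 1418 in BEAS-2B, whereas EPCAM was at 0 and CDH1 at no more than 2 in BEAS-2B. All 5 epithelial markers were below control beyond counting error at both doses in A549, where their summed normalized count went from 24834 to 11182 and 10461. In BEAS-2B 3 of 5 were, and the sum went from 2050 to 1042 and 1262. Of 6 leukocyte markers CD3E was at 0 throughout and PTPRC reached 4 counts, while the summed normalized level ran from 130 to 65.3 across the A549 libraries and from 53.5 to 7.56 across those of BEAS-2B, highest in both controls. Nearly all of that level was CD14 and CD68. CD14 was counted at 57, 24 and 14 in A549 and 24, 3 and 2 in BEAS-2B, and CD68 at 51, 73 and 52 and at 24, 14 and 4. The endothelial markers CDH5 and VWF were at 0 and PECAM1 reached 4 counts. The fibroblast marker COL1A1, itself a known TGF-β1 target, rose at both doses in both lines, and the summed level of 3 fibroblast markers in 5 ng/mL libraries was 2049 in A549 and 31042 in BEAS-2B, against 110 and 2806 in controls. Of the 5 ng/mL sums COL1A1 alone made up 2043 and 30841. PDGFRA was counted at 8, 22 and 5 in A549 and at 0 in BEAS-2B, and PDGFRB at 0, 13 and 1 and at 118, 178 and 160. The part of these marker changes in the results below was not tested. In such bulk samples, fewer expressing cells and less RNA per cell cannot be told apart.

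Under TGF-β1, calls among the interferon-stimulated genes went one way. In A549, 10 of the 40 genes were high enough to be called at each dose, and 4 fell and 0 rose at 1 ng/mL as well as at 5 ng/mL. The background over all genes was 12.6% lower and 10.9% higher of 7007 genes at 1 ng/mL, and 17.1% lower and 16.1% higher of 7115 at 5 ng/mL. In BEAS-2B, 15 genes were high enough, and 9 fell and 0 rose at each dose, against a background of 9.13% lower and 5.66% higher at 1 ng/mL and of 11.6% lower and 7.33% higher at 5 ng/mL. With log2(CPM + 1) as the ND value, a stricter minimum, 2 fell and 0 rose in each line at each dose. How many of the 40 genes were high enough on that scale is not given here, so the 2 cannot be read as a share. Of all genes high enough, 11.6% and 15.9% were lower in A549 at 1 and 5 ng/mL and 7.79% and 10.2% in BEAS-2B, and 12.5%, 21.7%, 6.53% and 8.11% were higher. On the main scale IFI6, IFITM2, OAS1 and PARP9 fell at both doses in A549. BST2, DTX3L, IFITM1, IFITM2, OAS3, PARP9, RARRES3 and SECTM1 fell at both doses in BEAS-2B, joined by IFITM3 at 1 ng/mL and IFI6 at 5 ng/mL. IFITM2 and PARP9 fell in all 4 comparisons.

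The rule by counting interval, which takes in the callable genes again beside lower-count ones, gave a similar split. It is therefore no separate result. With at least 10 counts, 25 of 33 genes in A549 at 1 ng/mL were below control beyond counting error and 1 was above, and at 5 ng/mL 25 of 31 were below and 1 above. In BEAS-2B the numbers were 25 below and 1 above of 33 at 1 ng/mL, and 25 below and 1 above of 32 at 5 ng/mL. Over all genes with that many counts, 29.4% and 33% were below in A549 at 1 and 5 ng/mL and 28.6% and 29.9% in BEAS-2B, while 30.9%, 32.9%, 25.9% and 28.5% were above. The genes above control were STAT2 at both doses in A549, IFI44L at 1 ng/mL in BEAS-2B, with 1 count in the control and 12 at that dose, and SP110 at 5 ng/mL in BEAS-2B. The genes below control in all 4 comparisons numbered 15: DDX58, DTX3L, HERC5, IFI27, IFI35, IFI6, IFIT1, IFIT3, IFIT5, IFITM1, IFITM2, MX1, OAS3, PARP9 and RARRES3. The median log2 FC of those with at least 10 counts was −1.16 and −1.40 in A549 at 1 and 5 ng/mL and −1.12 and −1.85 in BEAS-2B, beside 0.03, 0.00, −0.03 and −0.02 over all genes with that many counts. For the callable genes alone the medians were −0.69 and −0.69 in A549 and −1.12 and −1.30 in BEAS-2B, beside 0.09, 0.11, 0.01 and 0.03 over all callable genes. Setting the genes at 0 to their bounds left these medians as they were. The summed normalized count of the 40 genes went from 5052 in A549 control to 2345 and 2250 at 1 and 5 ng/mL, and from 10644 in BEAS-2B control to 4484 and 4897. The IFITM genes made up 54.5% of the BEAS-2B control sum and 22.8% of the A549 one. Without them the sums went from 3902 to 1915 and 1857 in A549 and from 4844 to 2204 and 2267 in BEAS-2B.

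**Figure D1:**
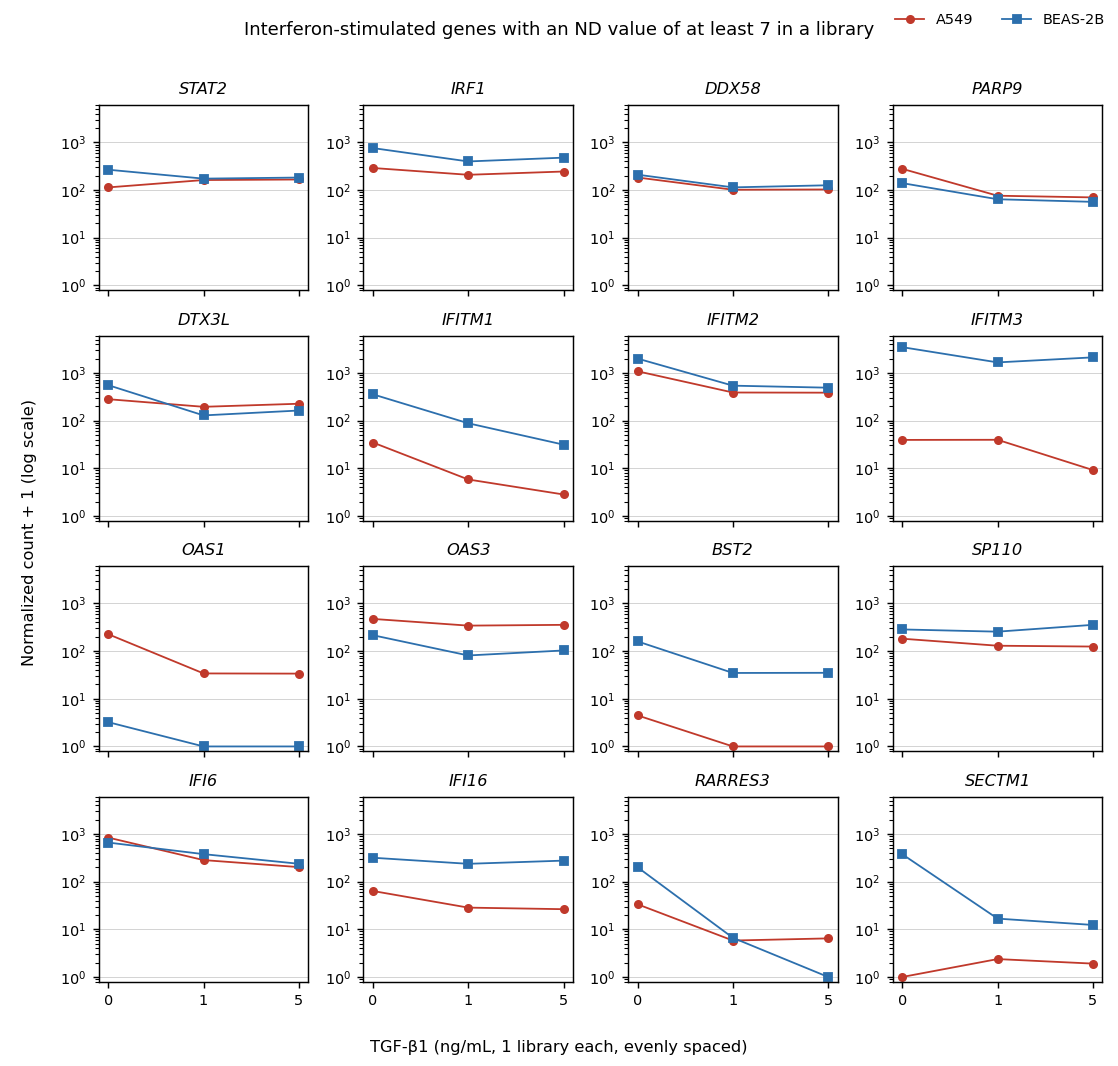
Normalized count plus 1 (log axis) against TGF-β1 dose for the 16 interferon-stimulated genes that reached an ND value of 7 in any library, with A549 as red circles and BEAS-2B as blue squares, 1 library per point and the doses evenly spaced. RARRES3 and SECTM1 drop most steeply in BEAS-2B, STAT2 is above control in A549 at both doses, and IFITM3 and SECTM1 sit far apart in the 2 lines.

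The signalling and transcription members moved unequally. STAT2, a part of ISGF3, was counted at 97, 234 and 182 in A549 at 0, 1 and 5 ng/mL and at 238, 153 and 144 in BEAS-2B. It was above control beyond counting error in A549, with ratios of 1.43 (1.12 to 1.83) and 1.47 (1.14 to 1.90), and below control in BEAS-2B, with ratios of 0.649 (0.526 to 0.798) and 0.683 (0.552 to 0.844). Under scaling by total counts the ratio in A549 at 5 ng/mL was 1.27, with an interval of 0.991 to 1.65 that held 1. None of these changes reached 2-fold. IRF9, the DNA-binding part of ISGF3, was counted at 65, 62 and 34 in A549 and at 20, 34 and 25 in BEAS-2B, so that A549 was below its control, 2.44-fold (1.59 to 3.81) at 5 ng/mL, while the intervals of BEAS-2B held 1. IRF9 shared 85.2% of the 50-base words in the last 300 bases of its transcripts with the overlapping gene AL136295.5, so its reads may be split between them. IRF1, an early activator of these genes, was counted at 249, 302 and 268 in A549 and 678, 352 and 378 in BEAS-2B, where it was 1.59-fold (1.40 to 1.81) below control at 5 ng/mL. In A549 IRF1 was 1.39-fold (1.17 to 1.65) below control at 1 ng/mL, and its interval held 1 at 5 ng/mL. IRF7, which drives later interferon production, was counted at 71, 23 and 16 in BEAS-2B, 3.93-fold (2.26 to 7.24) below control at 5 ng/mL. In A549 IRF7 had at most 21 counts. It was 2.72-fold (1.30 to 5.92) below control there at 1 ng/mL, and its interval held 1 at 5 ng/mL.

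Of the sensors of viral RNA, only DDX58 (RIG-I) carried many counts, with 157, 146 and 112 in A549 and 187, 100 and 99 in BEAS-2B. It was below control by similar folds in both lines, 1.79-fold (1.40 to 2.30) and 1.67-fold (1.30 to 2.16) at 5 ng/mL. IFIH1 (MDA5) and DHX58 (LGP2) had at most 15 and 12 counts in any library.

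ISG15, a ubiquitin-like protein, was counted at 58, 62 and 30 in A549 and 52, 30 and 31 in BEAS-2B. At 1 ng/mL it was below control beyond counting error in both lines, 1.58-fold (1.08 to 2.29) in A549 and 1.72-fold (1.08 to 2.79) in BEAS-2B. At 5 ng/mL it was so in A549, 2.47-fold (1.56 to 3.97), but not in BEAS-2B, 1.49-fold (0.934 to 2.40). HERC5, the ligase that attaches ISG15, was counted at 82, 42 and 39 in A549 and at 18, 1 and 4 in BEAS-2B. USP18, which removes ISG15 and dampens receptor signalling, was counted at 34, 33 and 42 in A549, 1.74-fold (1.04 to 2.89) below control at 1 ng/mL and with an interval that held 1 at 5 ng/mL. In BEAS-2B it went from 23 counts to 2 and 0, at least 6.79-fold lower at 5 ng/mL (5.09-fold at the end of the counting interval). HERC6, a relative of HERC5, was counted at 30, 19 and 16 in A549 and at no more than 7 in BEAS-2B.

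PARP9 and DTX3L form one complex that modifies ubiquitin and histones, and their promoters lie beside each other. PARP9 was counted at 239, 109 and 76 in A549 and at 124, 56 and 44 in BEAS-2B, lower by 4.02-fold (3.09 to 5.27) and 2.50-fold (1.76 to 3.61) at 5 ng/mL. DTX3L was counted at 241, 281 and 247 in A549 and at 494, 113 and 128 in BEAS-2B. It fell 4.33-fold (3.53 to 5.36) at 1 ng/mL and 3.42-fold (2.81 to 4.18) at 5 ng/mL in BEAS-2B, against 1.25-fold (1.04 to 1.49) at 5 ng/mL in A549, which is no call.

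The IFIT proteins bind viral RNA. IFIT1 was counted at 83, 14 and 18 in A549 and 35, 3 and 1 in BEAS-2B, IFIT3 at 53, 30 and 4 and at 86, 14 and 13, and IFIT5 at 74, 36 and 22 and at 54, 9 and 9. At 5 ng/mL all 4 IFIT genes, IFIT2 included, were below control beyond counting error in both lines, although none reached an ND value of 7. In A549 the folds were 5.89 (3.51 to 10.4) for IFIT1, 16.9 (6.23 to 64.4) for IFIT3 and 4.30 (2.64 to 7.26) for IFIT5. In BEAS-2B IFIT3 and IFIT5 were 5.86-fold (3.25 to 11.4) and 5.31-fold (2.60 to 12.2) lower, and for IFIT1, with 1 count left, the ratio was 0.0323 (0.000794 to 0.192).

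**Figure D2:**
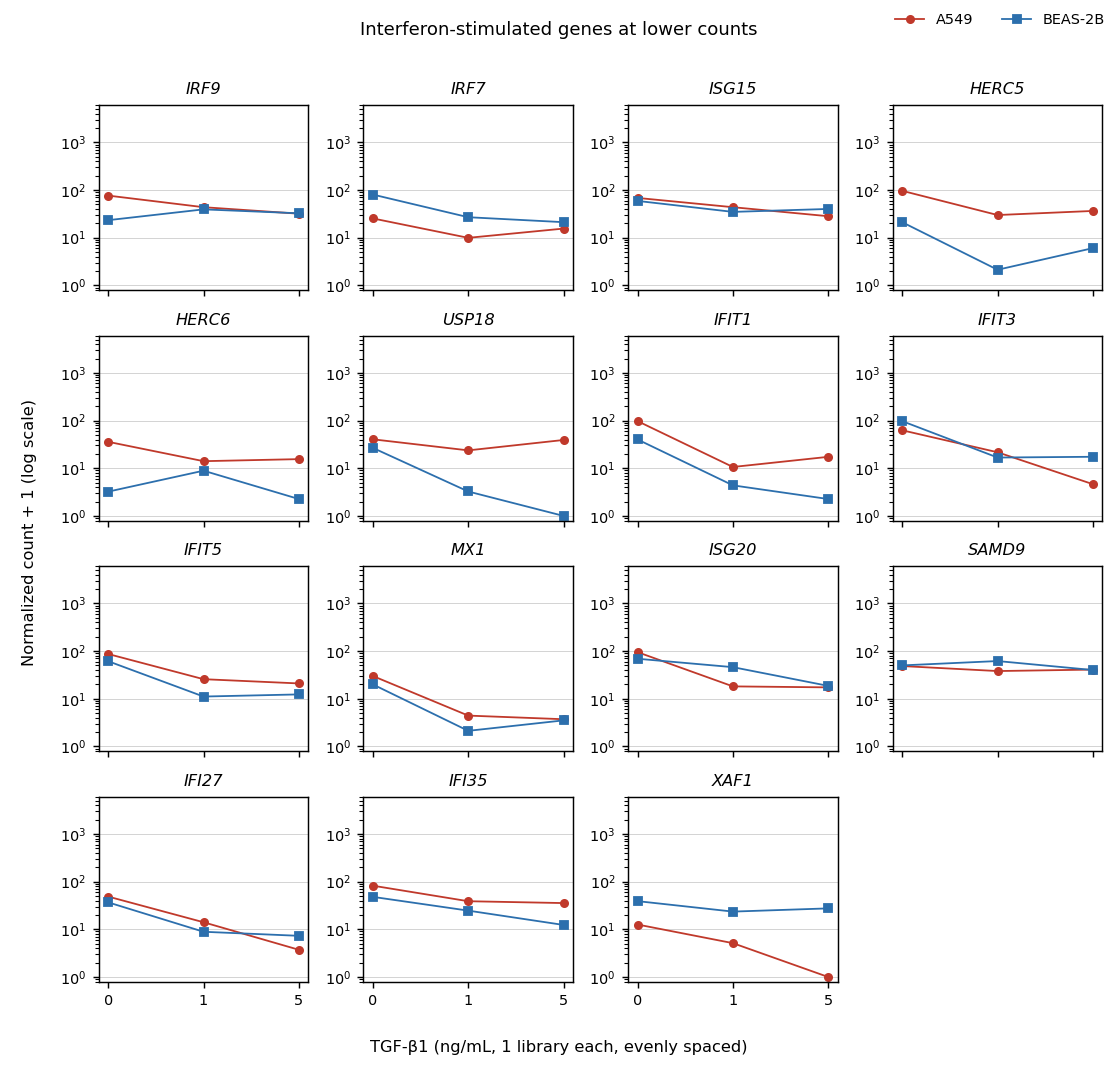
Normalized count plus 1 (log axis) against TGF-β1 dose for the 15 interferon-stimulated genes that stayed under an ND value of 7 and had more than 20 counts in at least 1 library, with A549 as red circles and BEAS-2B as blue squares, 1 library per point and the doses evenly spaced. IFIT1, IFIT3, IFIT5, MX1, IFI27 and IFI35 are lower at both doses in both lines.

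IFITM proteins sit in membranes and hinder virus entry. IFITM1 was counted at 317, 77 and 24 in BEAS-2B and at 29, 7 and 2 in A549, and it fell 11.7-fold (7.72 to 18.5) at 5 ng/mL in BEAS-2B. IFITM2 was counted at 930, 562 and 422 in A549 and 1784, 478 and 387 in BEAS-2B, falling 2.81-fold (2.51 to 3.16) and 4.08-fold (3.66 to 4.57) at 5 ng/mL. IFITM3 was counted at 3099, 1471 and 1677 in BEAS-2B and at 33, 56 and 9 in A549. It fell 2.09-fold (1.96 to 2.22) at 1 ng/mL in BEAS-2B, whereas at 5 ng/mL it was 1.64-fold (1.54 to 1.74) lower, short of a call. These genes share sequence at their 3′ ends: all 283 of the 50-base words in the last 300 bases of IFITM1 transcripts and 45.1% of those of IFITM2 also occurred in the other gene, and 25.9% of those of IFITM3 occurred in IFITM1. How reads were divided among the 3 is uncertain, so the family may be read as 1 summed level, which went from 1149 to 429 and 393 normalized counts in A549 and from 5800 to 2280 and 2630 in BEAS-2B.

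The OAS enzymes make the short RNA-like signal that switches on the nuclease RNase L. OAS1 was counted at 194, 48 and 36 in A549 and at 2, 0 and 0 in BEAS-2B, and fell 6.82-fold (4.95 to 9.55) and 6.88-fold (4.80 to 10.1) at 1 and 5 ng/mL in A549. OAS3 was counted at 407, 496 and 390 in A549 and at 192, 71 and 81 in BEAS-2B, where it fell 2.68-fold (2.03 to 3.57) and 2.10-fold (1.61 to 2.76). OAS1 thus carried the A549 call and OAS3 the BEAS-2B call. OAS2 and OASL had at most 6 and 11 counts. Of the MX GTPases, which trap viral particles, MX1 was counted at 25, 5 and 3 in A549 and at 17, 1 and 2 in BEAS-2B, and MX2 had at most 2 counts.

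BST2 (tetherin), which holds new virus particles at the cell surface, was counted at 142, 30 and 27 in BEAS-2B and at 3, 0 and 0 in A549. It fell 4.69-fold (3.15 to 7.21) and 4.66-fold (3.07 to 7.31) in BEAS-2B. The RNase ISG20 was counted at 81, 25 and 18 in A549 and at 61, 40 and 14 in BEAS-2B, 5.75-fold (3.42 to 10.2) and 3.86-fold (2.13 to 7.47) below control at 5 ng/mL. SAMD9, with 31 to 54 counts in every library, had intervals that held 1 in all 4 comparisons. SP110, a nuclear body protein, was counted at 156, 187 and 136 in A549 and 254, 226 and 281 in BEAS-2B, with ratios at 5 ng/mL of 0.683 (0.538 to 0.865) and 1.25 (1.05 to 1.49). Under scaling by total counts the interval in BEAS-2B held 1. RSAD2 (viperin) had at most 3 counts.

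IFI6, a mitochondrial and endoplasmic reticulum protein, was counted at 722, 410 and 221 in A549 and at 590, 334 and 187 in BEAS-2B, and fell 4.17-fold (3.58 to 4.87) and 2.79-fold (2.37 to 3.31) at 5 ng/mL. The DNA sensor IFI16 was counted at 283, 209 and 218 in BEAS-2B and at 54, 40 and 28 in A549, 2.46-fold (1.53 to 4.04) below control at 5 ng/mL in A549, while the interval of BEAS-2B held 1. IFI27 was counted at 41, 19 and 3 in A549 and at 32, 7 and 5 in BEAS-2B, and IFI35 at 70, 55 and 38 and at 42, 21 and 9, and both were below control at 5 ng/mL in both lines. XAF1, a gene linked to cell death, was counted at 10, 6 and 0 in A549, at least 4.26-fold lower at 5 ng/mL (2.86-fold at the end of the counting interval), and at 34, 20 and 21 in BEAS-2B, where the interval held 1. IFI44 and IFI44L had at most 5 and 13 counts. RARRES3, a lipid-modifying enzyme, was counted at 28, 7 and 6 in A549, 5.96-fold (2.42 to 17.6) below control at 5 ng/mL, and at 178, 5 and 0 in BEAS-2B, at 1 ng/mL 35.3-fold (14.8 to 110) lower. SECTM1, a secreted and membrane protein that binds lymphocytes, was counted at 335, 14 and 9 in BEAS-2B and at 0, 2 and 1 in A549. In BEAS-2B it fell 23.7-fold (13.9 to 43.9) at 1 ng/mL.

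**Figure D3:**
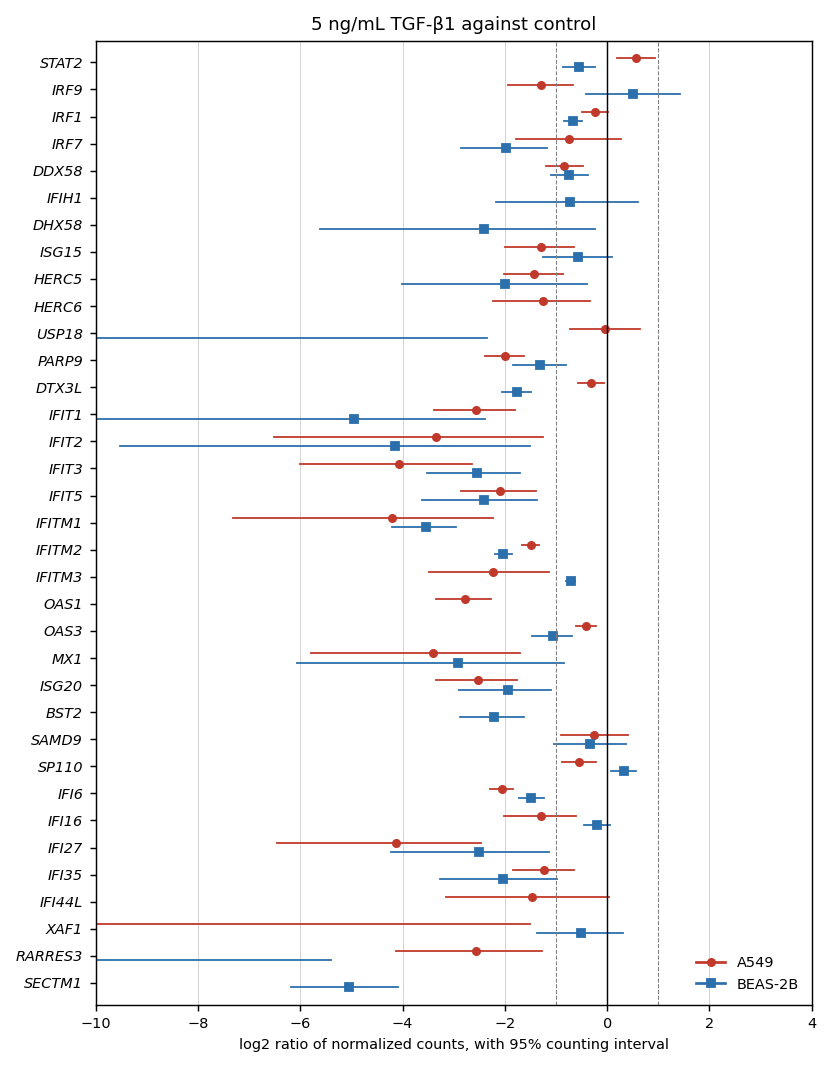
log2 ratio of normalized counts at 5 ng/mL TGF-β1 over control for the interferon-stimulated genes with at least 10 counts in the 2 libraries compared, with A549 as red circles, BEAS-2B as blue squares and bars for the 95% counting interval. Dashed lines mark a 2-fold change, a bar that runs off the left edge has its lower end beyond the axis, and a bar with no point belongs to a count of 0. In A549 25 of 31 intervals and in BEAS-2B 25 of 32 lay wholly below 0.

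Between the doses calls were rare among all genes, so a lack of calls among the interferon-stimulated genes does not set them apart. Of 7 genes in A549 and 8 in BEAS-2B that could be called between 5 and 1 ng/mL, 0 were called lower and 0 higher, where 1.79% and 0.412% of all genes were lower and 1.61% and 0.492% higher in A549 and BEAS-2B. By the counting interval, of 30 genes in A549 6 (20%) were lower at 5 than at 1 ng/mL and 1 (3.33%) was higher. In BEAS-2B 3 (11.5%) were lower and 3 (11.5%) higher of 26. The shares over all genes were 23.9% lower and 21.5% higher in A549 and 16.9% lower and 18.2% higher in BEAS-2B. IFI6 was lower in both lines, 1.40-fold (1.19 to 1.66) in A549 and 1.60-fold (1.33 to 1.92) in BEAS-2B. IFITM3 was lower at the higher dose in A549, 4.71-fold (2.31 to 10.8), as were IFIH1, IFIT2, IFIT3 and IFI27 on at most 4 counts at 5 ng/mL. In BEAS-2B IFITM1 was 2.87-fold (1.79 to 4.74) and ISG20 2.55-fold (1.36 to 5.08) lower. USP18 was above its 1 ng/mL level in A549, by a ratio of 1.68 (1.04 to 2.74). IRF1, IFITM3 and SP110 were above their 1 ng/mL level in BEAS-2B, by ratios of 1.20 (1.04 to 1.39), 1.28 (1.19 to 1.37) and 1.39 (1.16 to 1.67). The medians between doses, 0.04 in A549 and 0.24 in BEAS-2B for the callable genes, stood beside 0.01 over all callable genes in both lines, and with at least 10 counts they were −0.06 and 0.03. The 1 ng/mL library of each line serves both its control and its dose comparison, so these values are not independent.

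The 2 lines were set against each other by the difference of their log2 FC, with an interval for that difference which again covers counting error only. At 5 ng/mL 28 genes had at least 10 counts in both lines, of which 7 had a higher log2 FC in A549, 7 a lower one and 14 an interval that held 0. The difference was not computed over all genes at either dose. Whether these numbers are unusual for genes in general is therefore not known. DTX3L differed by 1.45 (1.06 to 1.85), STAT2 by 1.10 (0.62 to 1.59), IFITM2 by 0.54 (0.30 to 0.77) and OAS3 by 0.65 (0.22 to 1.10), A549 being higher. PARP9 differed by −0.69 (−1.33 to −0.03), IFI6 by −0.58 (−0.91 to −0.25), SP110 by −0.87 (−1.30 to −0.44), IFI16 by −1.10 (−1.86 to −0.36) and IFITM3 by −1.52 (−2.77 to −0.42), BEAS-2B being higher. RARRES3, at 0 in the treated BEAS-2B library, had a higher log2 FC in A549, by 2.26 at the lower end of the interval. For DDX58, HERC5, IFIT1, IFIT2, IFIT3, IFIT5, IFITM1, MX1, ISG15, ISG20, SAMD9, IRF7, IFI27 and IFI35 a difference between lines was not detectable at this depth. At 1 ng/mL 30 genes were compared, 8 higher and 6 lower in A549 and 16 with intervals that held 0.

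Without TGF-β1 the lines already differed. Of 16 genes that could be called, A549 was lower than BEAS-2B in 8 and higher in 2, against 18.9% lower and 18.1% higher over all genes. With log2(CPM + 1) as the ND value, 2 were lower and 0 higher, against 21.3% and 17.5%. IFITM3 was 90.4-fold (64.2 to 132) lower in A549, BST2 45.6-fold (15.3 to 224), IFITM1 10.5-fold (7.19 to 16.0), RARRES3 6.12-fold (4.09 to 9.47), IFI16 5.05-fold (3.76 to 6.88), IRF1 2.62-fold (2.26 to 3.04) and STAT2 2.36-fold (1.86 to 3.02). SECTM1, with 0 counts in A549, was at least 108-fold lower (86.9-fold at the end of the counting interval). OAS1 was higher in A549 by a ratio of 101 (27.5 to 838) that rests on 2 counts in BEAS-2B, and OAS3 by 2.20 (1.85 to 2.63). By the counting interval 14 genes were lower in A549 and 10 higher of 35, against 33.8% and 36.9% over all genes. The lines differ in many ways beyond these genes, and the 2 control libraries are 1 each, so line and library cannot be told apart.

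**Figure D4:**
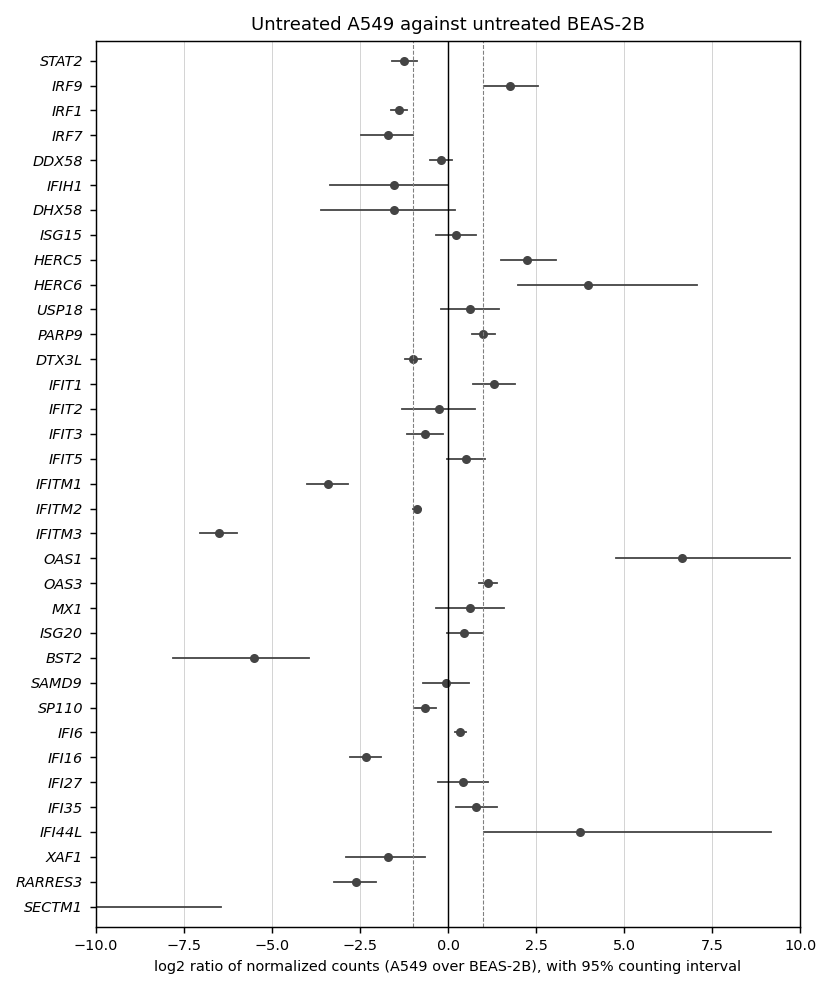
log2 ratio of normalized counts in untreated A549 over untreated BEAS-2B for the interferon-stimulated genes with at least 10 counts in the 2 libraries, with points for the ratio, bars for the 95% counting interval and dashed lines at a 2-fold difference. IFITM3, BST2 and SECTM1 lie far to the left, SECTM1 as a bar without a point because it had 0 counts in A549, and OAS1 lies far to the right on 2 counts in BEAS-2B.

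The wider interferon pathway, a list of 84 genes that are not among the 40, was examined in the same way. In A549 8 of 27 callable genes fell at 1 ng/mL and 9 of 28 at 5 ng/mL. In BEAS-2B 11 of 28 and 9 of 28 fell, and 0 rose in each comparison. Of all callable genes 12.6% and 17.1% were lower in A549 and 9.13% and 11.6% in BEAS-2B. The shares higher were 10.9% and 16.1% in A549 and 5.66% and 7.33% in BEAS-2B. By the counting interval, with at least 10 counts, 29 were below and 2 above control of 50 in A549 at 1 ng/mL and 29 below and 6 above at 5 ng/mL. In BEAS-2B 27 were below and 4 above of 55 at 1 ng/mL, and 28 below and 8 above at 5 ng/mL. Over all genes with that many counts, 29.4% and 33% were below in A549 and 28.6% and 29.9% in BEAS-2B. The shares above were 30.9% and 32.9% in A549 and 25.9% and 28.5% in BEAS-2B. Of 21 interferon ligand genes found, only IFNE, IFNA1, IFNK and IFNL1 had a count in any library, IFNE up to 19 and the other ones up to 2. Interferon-α/β receptor gene IFNAR1, counted at 152, 263 and 231 in A549 and 293, 278 and 261 in BEAS-2B, had intervals that held 1 in all 4 comparisons. Its partner IFNAR2, counted at 125, 151 and 130 in A549 and 90, 103 and 93 in BEAS-2B, was 1.40-fold (1.09 to 1.78) below control in A549 at 1 ng/mL, and its other 3 intervals held 1. The kinase gene JAK1 was counted at 632, 1080 and 697 in A549, with a log2 FC of 0.02 and −0.21 at 1 and 5 ng/mL. In BEAS-2B it was counted at 717, 332 and 331, with a log2 FC of −1.10 and −0.94. The interferon-γ receptor gene IFNGR2 was counted at 189, 143 and 57 in A549 and at 418, 224 and 148 in BEAS-2B, falling 4.23-fold (3.13 to 5.80) and 2.50-fold (2.07 to 3.04) at 5 ng/mL. IFNGR1 was counted at 78, 12 and 1 in A549 and at 19, 6 and 1 in BEAS-2B, too low to be called. The ubiquitin ligase TRIM25, which acts on RIG-I, fell 2.50-fold (2.20 to 2.84) and 3.01-fold (2.59 to 3.50), the RNA-activated kinase gene EIF2AK2 (PKR) 2.86-fold (2.45 to 3.34) and 2.81-fold (2.24 to 3.55), LY6E 2.16-fold (1.70 to 2.77) and 2.38-fold (1.68 to 3.43), and APOL1 3.76-fold (2.58 to 5.59) and 4.08-fold (3.11 to 5.44), in A549 and BEAS-2B at 5 ng/mL. SOCS3, a brake on JAK signalling, also fell in both lines, from 198 to 17 counts in A549 and from 216 to 6 in BEAS-2B. At 5 ng/mL, PLSCR1 and PIAS1 were called lower in A549, by 2.52-fold (1.93 to 3.33) and 3.37-fold (2.44 to 4.72). In BEAS-2B, NMI fell 2.42-fold (1.76 to 3.35), TICAM1 3.43-fold (2.40 to 5.01) and APOL6 19.9-fold (10.3 to 44.1). In A549 APOL6 was at 109, 55 and 21 counts, its control just under an ND value of 7.

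**Figure D5:**
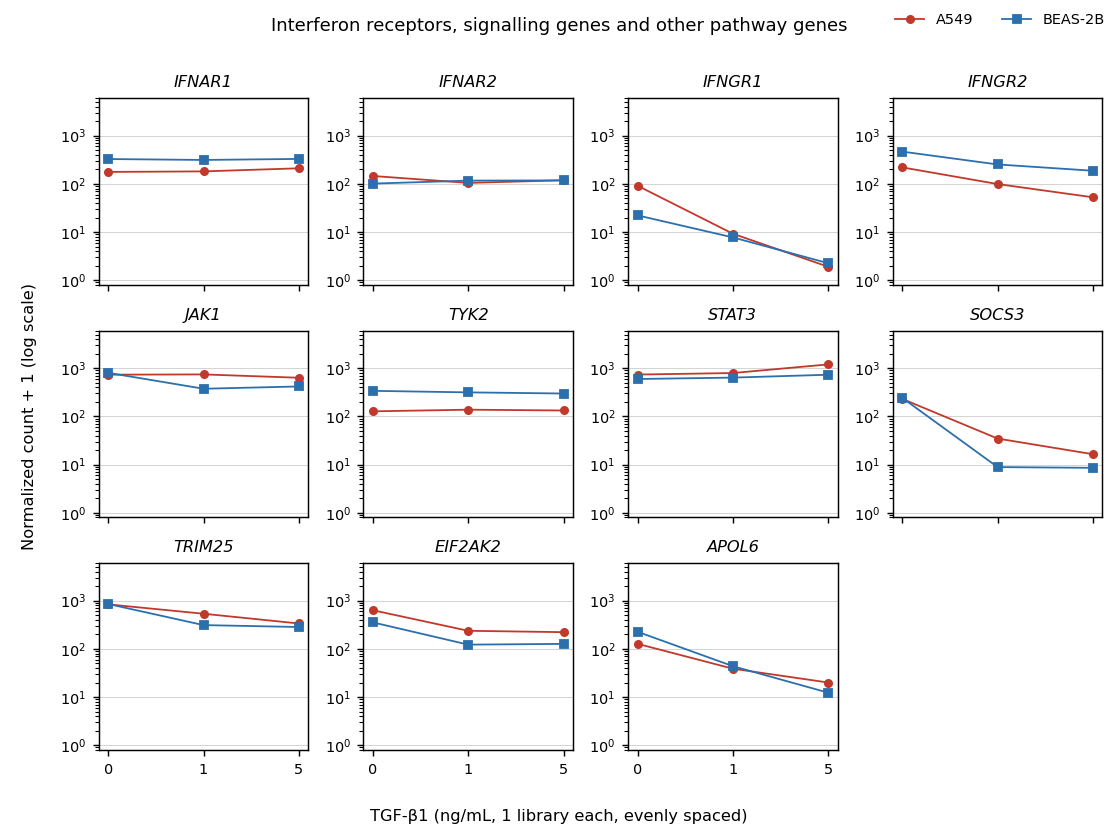
Normalized count plus 1 (log axis) against TGF-β1 dose for 11 further interferon pathway genes, picked after their values were seen to span receptors, kinases and targets, with A549 as red circles and BEAS-2B as blue squares, 1 library per point and the doses evenly spaced. IFNAR1 and TYK2 have counting intervals that held 1 in all 4 comparisons, while IFNGR1, IFNGR2, SOCS3, TRIM25, EIF2AK2 and APOL6 are lower at 5 ng/mL in both lines. JAK1 is lower at both doses in BEAS-2B.

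The promoter motif was found both in genes that were called lower and in genes that were not called. Of the 11 genes called lower in either line at either dose, 9 had a promoter entry and 7 of these held an ISRE core. Of the 22 other genes with an entry, 14 held one. Not being called is no sign of an unchanged level, since most of the 40 genes were too low to be called. DDX58, HERC5, IFI27, IFIT1, IFIT3, IFIT5 and MX1 held a core and were not called. All of them were below control beyond counting error in all 4 comparisons. PARP9 and OAS1 fell without a match in the window, and SAMD9, with intervals that held 1 in all 4 comparisons, had one. Transcript GC content of the 40 genes, with a median of 49.5%, was close to the 48.3% of 9419 expressed genes.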

How the data were processed

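The authors deposited raw read counts, 1 whole number for each gene entry and library, from QuantSeq 3′ mRNA libraries with 1 library per condition. The study names ExDEGA for its analysis. The submitters' processing notes name Bowtie2, bedtools and the hg19 build, whose versions and roles are not given in the sources used here. All 6 libraries were used, with 0 columns of per-sample values left out. Samples were grouped by their labels.

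Counts were scaled by TMM over all entries (edgeR 4.0.16, R 4.3.3). Treated libraries were set against the control of their line, the 5 against the 1 ng/mL library, and both controls with each other, 7 comparisons in all. With 1 library per condition no test was run. Intervals are exact and cover counting error. A fold against a count of 0 is a bound from the 3 counts it allows. The steps were tested on simulated data. Python 3.11.15 with pandas 2.3.3, scipy 1.17.1 and matplotlib 3.10.9 did the remaining work. The genes and lists were chosen with earlier results of these data known. Genes called in any comparison are given with their counts in the libraries, the rest by their counts or ranges, and pathway genes where they were called at 5 ng/mL. Other pathway genes named, among them IFNAR1, IFNAR2, TYK2 and IFNGR1, were chosen after their values were seen.

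Alternatives numbered 9 planned ones (DESeq2 1.42.0 size factors, total counts, upper quartile factors, a filter at 10 counts, a pseudocount of 5, the ND value as log2(CPM + 1), the minimum in both libraries, an FC of at least 3 and libraries thinned to the smallest total) and 3 that were added after the data had been seen (GC trend removed, no minimum ND value, counting interval in place of FC and ND). Positions come from RefSeq promoters on GRCh38.p14 and describe the genes, not the counted intervals. 3′ words came from GENCODE transcripts. Protein sequences were not used here. Some genes of the lists are counted in the totals but not reported here one by one.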

Additional observations from a re-analysis of the deposited data

Results flagged for a closer look

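STAT2 moved one way in A549 and the other in BEAS-2B. Its log2 FC at 5 ng/mL TGF-β1 was higher in A549 by 1.10, with a counting interval of 0.62 to 1.59, and by 1.14 (0.67 to 1.61) at 1 ng/mL. IRF9 moved the opposite way to STAT2, lower in A549 by 1.78 on the log2 scale, a difference of −1.78 (−2.92 to −0.66) at 5 ng/mL and of −1.60 (−2.63 to −0.59) at 1 ng/mL. The BEAS-2B values of IRF9 had intervals that held 1, and its reads may be shared with an overlapping gene. Both were singled out because the 2 lines pointed in opposite directions. The differences were not tested over replicates, since each condition has 1 library and the intervals cover counting error only.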

How the results depend on the processing

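With 1 library per condition no replicate could be left out. No paired analysis was possible because each condition has 1 library and the labels give no replicate numbers. Counting error bounds these values, and the spread between cultures is unknown. Of 168 recomputed counts of calls, 127 were within 1.5 times the main count and 41 were not. DESeq2 size factors, total counts, upper quartile factors, the filter at 10 counts, a pseudocount of 5, thinned libraries and removal of the GC trend moved none past that limit. Of 686 log2 FC values of the 14 called genes, 663 lay inside their counting interval. Another sign was found in 17, all of values that were not called, such as IFITM3 in A549 at 1 ng/mL, and in 0 of the called ones.

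The number of genes called depends mainly on the ND minimum, since most lie near or under it. Taking log2(CPM + 1) as the ND value, or asking for an ND value of 7 in both libraries, changed the 4 falls in A549 to 2 and 2 at each dose, and the 9 falls in BEAS-2B to 2 and 3 at each dose. With the minimum in both libraries, 6.73% and 8.8% of all genes that met it were lower in A549 at 1 and 5 ng/mL. In BEAS-2B these shares were 4.88% and 6.19%. Between the untreated lines the 2 higher calls in A549 became 0 and 1, and the 8 lower ones 2 and 1. With the minimum in both libraries, 9.54% of all genes were higher there and 13.1% lower. The shares for log2(CPM + 1) are given with the calls above. An FC of at least 3 left 2 falls in A549 at 1 ng/mL and 1 higher call between the lines, against 5.99% and 9.97% of all genes.

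With no minimum ND value, 23 genes were lower and 2 higher in A549 at 1 ng/mL, 28 and 1 at 5 ng/mL, 22 and 3 in BEAS-2B at 1 ng/mL and 24 and 2 at 5 ng/mL. Between doses they were 9 lower and 2 higher in A549 and 6 and 3 in BEAS-2B, and 9 were higher in A549 than in BEAS-2B without TGF-β1. Of all genes with a count in either library, 18.3% and 25.3% were lower in A549 at 1 and 5 ng/mL. The shares higher were 15.5% and 17.5%. In BEAS-2B 18.4% and 19.3% were lower and 15.4% and 16.9% higher. Between doses 11.9% were lower and 6.89% higher in A549, and 10.2% and 11.6% in BEAS-2B. Without TGF-β1 31.1% were higher in A549. With the counting interval alone and no minimum of counts, 27 were lower and 1 higher in A549 at both doses, 25 and 1 in BEAS-2B at 1 ng/mL and 25 and 2 at 5 ng/mL, 6 and 1 between doses in A549, 3 and 3 in BEAS-2B, and 14 and 10 between the untreated lines. For this rule the share over all genes was not computed without any minimum. The shares with at least 10 counts are given with the results above.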
